A study of Mus musculus with 18 samples.

Results

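This section describes 38 genes that mark lymphocytes and natural killer (NK) cells, among 28919 genes measured in mouse mammary tumours driven by ErbB2 and in normal mammary gland. The genes were chosen by name from what they are known to mark: the leukocyte gene Ptprc, 9 B cell and follicle genes, 4 genes of MHC class II antigen presentation, 17 T cell genes and 7 NK and cytotoxic genes. All 38 were found on the array, and each was read from its brightest probe on the KI arrays. The samples were 5 single ErbB2 knock-in (KI) tumours, 2 pools of NIC tumours with equal RNA from 5 tumours in each pool, and 2 normal mammary glands. All were from female FVB/N mice, and RNA came from whole flash-frozen tissue. The labels give no age, and they name neither the promoter behind the KI or NIC allele nor any further allele. The 2 normal glands carry different codes in their titles, and the titles do not say what the codes stand for. Whether the glands differ in age or state is therefore not known. Each RNA was hybridised on 2 two-colour arrays with swapped dyes against Stratagene universal mouse reference RNA, a common pool used on all 18 arrays. A level below is the log2 ratio of the sample to that reference, averaged over the 2 arrays. A value of 0 means as much signal as in the reference, and levels are compared between samples for 1 gene, never between genes.

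B cells recognise antigen through a receptor that signals by way of Cd79a and Cd79b, and they gather in follicles that the chemokine Cxcl13 builds by attracting cells with the receptor Cxcr5. T cells signal through the CD3 chains, the kinase Lck and the kinase Zap70, with Cd4 or Cd8 as co-receptor. NK cells and cytotoxic T cells kill with perforin and granzymes, and NK cells read MHC class I on other cells through receptors of the Ly49 (Klra) and Klrd1 families. The mouse mammary fat pad holds lymph nodes as well as scattered lymphocytes, so whole gland RNA can contain both.

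Promoter sequences were available from RefSeq (GRCm38.p6) for 25 of the 38 genes, and 4 are printed because each pair carries a short motif that its group shares. H2-Aa and H2-Eb1 encode an alpha and a beta chain of MHC class II, and their Y box (CTGATTGG, the site of the NF-Y factor in class II promoters) is in capitals. Gzma and Gzmb encode granzymes A and B, and the core motif of RUNX factors (TGTGGT, or ACCACA where it lies on the other strand) is in capitals. Each sequence is the 250 bases before the annotated start, 5′ to 3′.
H2-Aa, chr17:34287824-34288073, minus strand: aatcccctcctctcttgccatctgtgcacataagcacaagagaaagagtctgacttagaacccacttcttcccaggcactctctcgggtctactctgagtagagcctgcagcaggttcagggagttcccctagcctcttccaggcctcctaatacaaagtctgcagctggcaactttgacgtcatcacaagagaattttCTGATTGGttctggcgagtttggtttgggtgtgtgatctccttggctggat
H2-Eb1, chr17:34305617-34305866, plus strand: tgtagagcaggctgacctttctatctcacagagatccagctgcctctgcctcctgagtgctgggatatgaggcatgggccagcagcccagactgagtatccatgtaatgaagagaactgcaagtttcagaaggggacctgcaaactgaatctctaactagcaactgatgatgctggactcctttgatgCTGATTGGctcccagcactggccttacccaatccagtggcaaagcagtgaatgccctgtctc
Gzma, chr13:113100982-113101231, minus strand: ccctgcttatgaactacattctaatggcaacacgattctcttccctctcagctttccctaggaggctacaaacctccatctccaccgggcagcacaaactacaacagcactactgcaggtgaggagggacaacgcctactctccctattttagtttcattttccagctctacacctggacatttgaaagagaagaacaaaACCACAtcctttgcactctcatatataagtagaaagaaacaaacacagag
Gzmb, chr14:56262335-56262584, minus strand: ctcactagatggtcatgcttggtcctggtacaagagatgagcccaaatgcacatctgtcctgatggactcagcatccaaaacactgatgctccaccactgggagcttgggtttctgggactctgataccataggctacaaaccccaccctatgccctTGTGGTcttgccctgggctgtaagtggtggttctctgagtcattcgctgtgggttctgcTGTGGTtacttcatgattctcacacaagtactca
The Y box was found in both MHC class II genes with a sequence and in no other of the 25 genes, against 3.83% of all 32851 promoter windows, both strands searched. In H2-Aa it began 51 bases before the start and in H2-Eb1 62 bases before it. The RUNX core was found in all 6 NK and cytotoxic genes with a sequence (Gzma, Gzmb, Prf1, Klra1, Nkg7 and Ncr1) and in Lck and Zap70, against 14.0% of all windows. It began 50 bases before the start in Gzma, and 93 and 34 bases before it in Gzmb. These were 2 of 14 motifs searched, and were chosen for display after the matches were seen. The octamer ATTTGCAT, known from B cell promoters, was in none of the 25 windows and in 1.6% of all windows. A match describes letters and no binding was measured.

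Across the 38 genes, levels in both tumour types lay mostly below those in normal gland. In KI tumours 23 of 38 were lower than in normal gland, 1 was higher (Cd4) and 14 did not pass the test, where 24.8% of all genes were called lower and 17.8% higher (42.7% in either direction). In NIC pools 17 of 38 were lower than in normal gland, 1 was higher (Gzmb) and 20 did not pass, against 9.8% and 8.8% of all genes (18.6% in either direction). The median log2 difference of the 38 genes was -0.93 for KI minus normal and -1.19 for NIC minus normal, while the medians of all genes were -0.03 and -0.06. Between the tumour types, 2 of the 38 were higher in KI than in NIC (Cd79b and Cd5) and none was lower. Of all genes, 2.89% were called higher and 3.24% lower (6.13% in either direction). At an unadjusted p under 0.05, 5 of the 38 were higher and 1 lower, while 6411 of all 28919 genes passed in either direction. Calls are from limma at a Benjamini-Hochberg adjusted p under 0.05 over all 28919 genes. Both comparisons with normal gland share the same 2 glands, so they are not independent of each other. The KI arrays came in a separate deposited table and under a different array platform record from the other arrays. KI tumours, that table and that platform record therefore cannot be told apart in any KI comparison. In these whole-tissue samples fewer cells of a type and less RNA per cell cannot be told apart.

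The precision is set by few samples. Without either NIC pool, none of the 38 genes passed for NIC against normal, in fits with a lone pool in that group. Without normal gland 1, 15 rather than 23 passed as lower for KI against normal. The KI calls of Cd79a, Cxcl13, Cd3g, Cd4, Lck, Zap70, Ctla4, Il7r and Nkg7 were lost without normal gland 1, and those of Cxcl13, Cd4, Il7r, Prf1 and Nkg7 without normal gland 2. Those of Cd79a, Zap70 and Nkg7 were also lost without single KI tumours. For NIC, the calls of Ptprc, Cd5 and Gzmb were also lost without normal gland 1, and those of Cd5 and Gzmb without normal gland 2. The 2 arrays of 1 RNA differed by a median of 0.28 log2 units over the 38 genes and 9 RNAs, by 1.07 at the 90th percentile and by up to 3.29 (H2-Eb1 in NIC pool 1). Normal gland 2 stood apart in this: its arrays differed by over 1 log2 unit in 15 of the 38 genes, against 7 in NIC pool 1, 4 in NIC pool 2, 1 in normal gland 1 and 2 to 4 in each KI tumour. Without normal gland 2, 21 genes passed as lower in KI and 20 in NIC. On arrays with the sample in Cy5 alone 16 passed as lower in KI and 3 in NIC, and in Cy3 alone 24 and 15. Of all 28919 genes, 11431 in KI and 4785 in NIC passed in either direction on Cy5 alone. On Cy3 alone 10604 and 2044 did. All 24 genes called in KI and all 18 called in NIC kept their sign on both dyes, but the sizes on the dyes differed by over 1.5 times in 9 and 10 of them. All 38 genes were well above background in the sample channel on all 10 KI arrays, where 97.3% of all array spots were. In 8 of them (Cxcr5, Cd3d, Foxp3, Ccr7, Gzma, Prf1, Nkg7 and Ncr1) both channels were in the lowest 25% of signals, a limit set after the signals were seen.

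**Figure D1:**
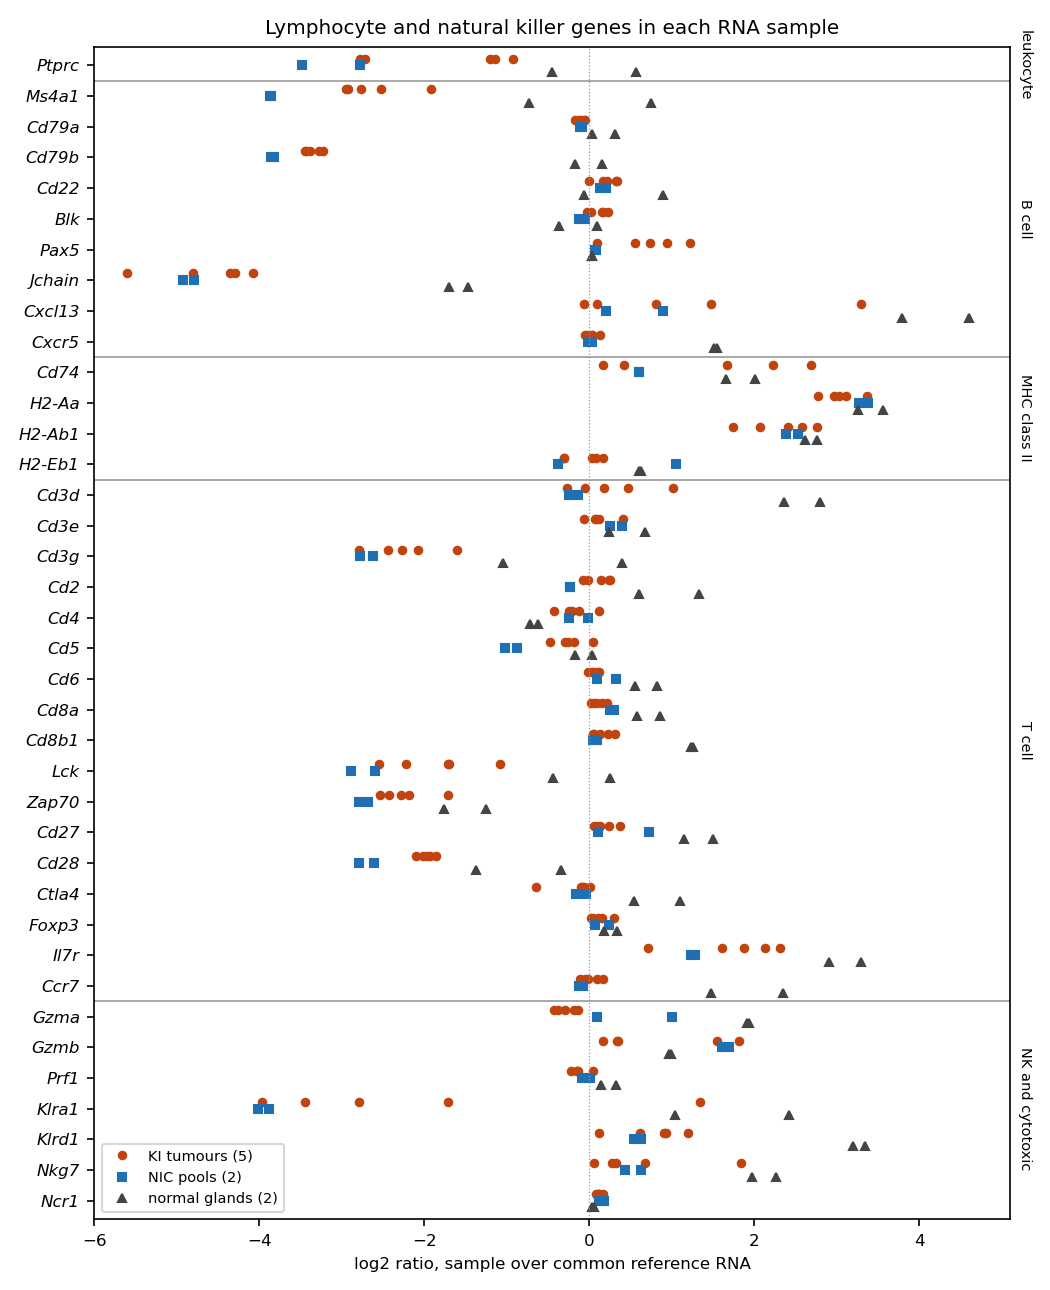
Level of each gene (log2 ratio of sample to common reference, horizontal axis) in each of the 9 RNA samples, 1 point per RNA, with circles for KI tumours, squares for NIC pools and triangles for normal glands. For Cxcr5, Cd3d and Ccr7 no tumour point is above 1.02 and no gland is below 1.47, while for H2-Aa the 3 groups overlap. Each point averages 2 arrays, and on Cy5 alone normal gland 2 was at 0.25 for Ccr7, below KI tumour 1 at 0.34. Cxcr5, Cd3d and Ccr7 had both channels in the lowest 25% of signals on the KI arrays.

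**Figure D2:**
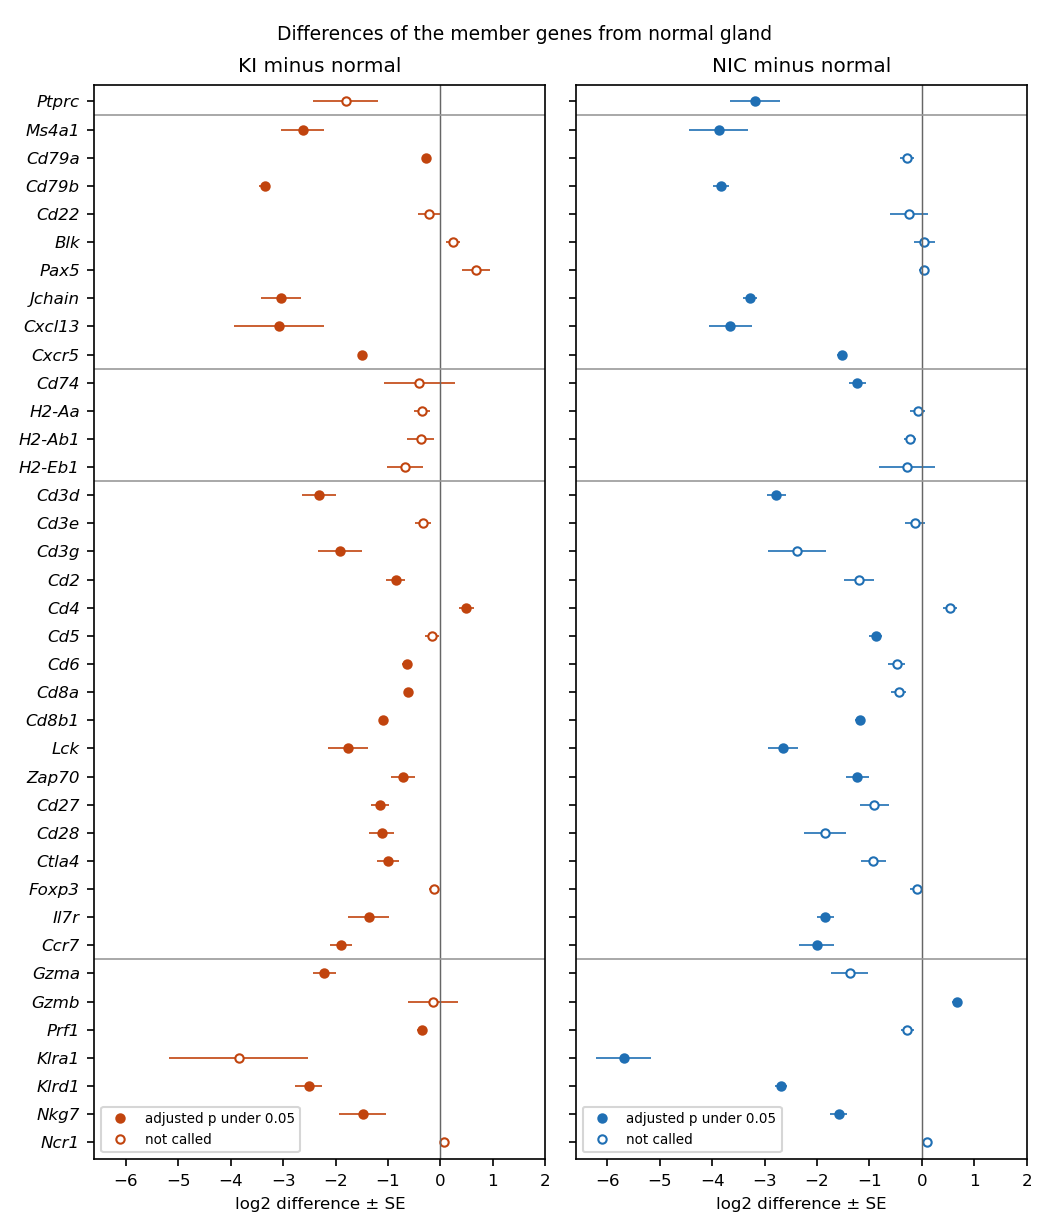
Log2 difference from normal gland with its standard error for KI tumours (left) and NIC pools (right), in the same gene order, with filled points for adjusted p under 0.05. Klra1 has the lowest value in both panels, and Gzmb in NIC and Cd4 in KI are the filled points above 0.

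Ptprc encodes CD45, the phosphatase on the surface of all nucleated blood cells. Its levels were -0.92, -2.78, -1.14, -2.72 and -1.20 in KI tumours 1 to 5, -2.77 and -3.48 in NIC pools 1 and 2, and 0.57 and -0.46 in normal glands 1 and 2. On the probe used, every tumour sample lay below both glands, and KI tumours 2 and 4 lay close to NIC pool 1. Ptprc fell by 3.18 ± 0.47 log2 units in NIC (SE, adjusted p = 0.0310). For KI against normal it was -1.81 ± 0.63, and did not pass (adjusted p = 0.0506), although it did without KI tumour 1, at -2.02 (adjusted p = 0.0408). In normal gland 2 the 2 arrays differed by 2.19 log2 units. Its other 2 probes gave smaller differences, -1.16 and -0.34 for NIC and -0.26 and -0.04 for KI, so its size depends on the probe. The separation from the glands does too. On the first of these probes normal gland 2, at -2.67, lay below all KI tumours (-2.21 to -1.08). On the second the KI tumours (-0.56 to -0.35) overlapped the glands (-0.38 and -0.51).

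Of the 9 B cell genes, 6 fell in KI and 5 in NIC, against 24.8% and 9.8% of all genes, and none rose. Cd79b, the receptor chain, and Ms4a1 (CD20), a surface protein, were among those that fell in both. The list medians were -1.502 for KI and -1.52 for NIC. Cd79b was -3.23, -3.45, -3.28, -3.43 and -3.39 in the KI tumours, -3.82 and -3.86 in the NIC pools, and 0.16 and -0.17 in the glands. These groups did not overlap, and the difference was -3.35 ± 0.10 in KI (10.2-fold lower, adjusted p = 3.6e-06) and -3.84 ± 0.15 in NIC (14.3-fold lower, adjusted p = 0.00794). The gland 2 value averages -1.49 on Cy5 and 1.15 on Cy3, and the NIC difference was -2.76 on Cy5 (adjusted p = 0.0641) and -4.92 on Cy3 (adjusted p = 0.0292).
Ms4a1 was -2.52, -1.92, -2.93, -2.77 and -2.95 in KI, -3.87 and -3.86 in NIC, and 0.75 and -0.73 in normal gland. It fell by 2.63 ± 0.42 in KI (adjusted p = 0.00239) and by 3.88 ± 0.56 in NIC (adjusted p = 0.0297). The NIC pool 2 value averages -2.81 on Cy5 and -4.92 on Cy3. The NIC call was lost on Cy5 alone (-2.96, adjusted p = 0.0998) and kept on Cy3 alone (-4.79, adjusted p = 0.0338). The second Ms4a1 probe gave -1.43 and -2.43, also below 0 in both.
Jchain, the joining chain of secreted IgA and IgM made by plasma cells, ranged from -5.61 to -4.07 in KI and was -4.79 and -4.93 in NIC, against -1.47 and -1.71 in the glands. It fell by 3.04 ± 0.38 in KI (adjusted p = 9.7e-04) and by 3.27 ± 0.14 in NIC (adjusted p = 0.00794). The reference channel of this probe was saturated on 1 of the 10 KI arrays, so that ratio is less certain, and its arrays differed by 1.96 and 2.56 in the NIC pools and 2.13 in normal gland 2.

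The follicle pair Cxcl13 and Cxcr5 was also lower. Cxcl13 was 3.29, -0.06, 1.48, 0.09 and 0.81 in KI tumours 1 to 5, 0.90 and 0.20 in the NIC pools, and 4.61 and 3.80 in normal glands 1 and 2. KI tumour 1 came closest to the glands. Cxcl13 fell by 3.08 ± 0.86 in KI (adjusted p = 0.0242) and by 3.65 ± 0.41 in NIC (adjusted p = 0.0203). The 2 arrays of NIC pool 1 differed by 1.70 for this gene. Cxcr5 stayed between -0.05 and 0.13 in all 5 KI tumours and at -0.02 and 0.03 in NIC, against 1.55 and 1.51 in normal gland. The tumour signal was thus close to that of the reference. Both channels were dim on the KI arrays (brightness percentiles 9.8 for sample and 9.3 for reference), so equal amounts of RNA are not shown. Cxcr5 fell by 1.502 ± 0.06 in KI (adjusted p = 1.6e-05) and by 1.52 ± 0.10 in NIC (adjusted p = 0.0104). The gland 2 value averages 0.39 on Cy5 and 2.64 on Cy3, so these errors understate the spread between arrays. By dye the difference was -0.71 on Cy5 and -2.29 on Cy3 in KI, both called, and -0.90 and -2.15 in NIC, neither called.
The other B cell genes showed little difference. Cd79a fell by 0.28 ± 0.08 in KI (adjusted p = 0.0285) and was at -0.28 ± 0.14 in NIC, not past the threshold (adjusted p = 0.229). Cd22, a receptor that restrains B cell signalling, and Blk, a B cell Src-family kinase, did not pass in either comparison (differences between -0.25 and 0.24). Pax5, the factor that fixes B cell identity, was 1.22, 0.09, 0.94, 0.74 and 0.56 in KI, 0.08 and 0.08 in NIC, and 0.04 in both glands. All 5 KI values lay above the glands, but the difference of 0.67 ± 0.26 did not pass (adjusted p = 0.0750).

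Class II genes showed the smallest differences of the 4 lists, with 0 of 4 called in KI and 1 of 4 lower in NIC. Of all genes, 42.7% and 18.6% were called in either direction. The class II medians were -0.39 and -0.25. These medians went above 0, to 0.65 and 0.41, when all arrays were scaled to 1 spread, so no direction is given for this list. Cd74, the invariant chain that guides class II through the cell, was 2.69, 0.42, 2.23, 0.16 and 1.67 in KI, 0.61 and 0.60 in NIC, and 2.02 and 1.66 in normal gland. KI tumours 1, 3 and 5 were at or above the lower gland, whereas tumours 2 and 4 were below both NIC pools. Cd74 fell by 1.23 ± 0.16 in NIC (adjusted p = 0.0258), while the KI difference of -0.40 ± 0.68 did not pass (adjusted p = 0.674). In NIC pool 1 the 2 arrays differed by 2.08, and the NIC call was lost on Cy5 and on Cy3 alone (adjusted p = 0.22 and 0.0901).
H2-Aa was between 2.78 and 3.38 in KI, at 3.28 and 3.38 in NIC and at 3.56 and 3.26 in normal gland. The groups overlapped, and neither difference passed (-0.36 ± 0.16 in KI, adjusted p = 0.108; -0.08 ± 0.15 in NIC, adjusted p = 0.725). Scaled to 1 spread, both turned above 0 and passed, at 1.23 in KI and 1.37 in NIC. H2-Eb1 ranged from -0.31 to 0.17 in KI, was 1.06 and -0.38 in NIC and 0.63 and 0.61 in normal gland, and passed in neither. The NIC pool 1 value averages 2.70 on Cy5 and -0.59 on Cy3, and the NIC difference was 0.57 on Cy5 and -1.14 on Cy3, so its sign depends on the dye. All KI values lay below both glands, at -0.68 ± 0.34 (adjusted p = 0.149). The error of this KI difference is shared with the NIC pools, so the gap in pool 1 enters it. On Cy3 alone the KI difference was -0.74 and passed (adjusted p = 0.0123), and on Cy5 it was -0.62 and did not (adjusted p = 0.486). H2-Ab1, the beta chain partner of H2-Aa, was at -0.38 ± 0.26 in KI and -0.23 ± 0.12 in NIC and passed in neither. Its probes disagreed, with 2 others at 1.32 and 0.88 for KI and at 1.46 and 1.06 for NIC. In these 2 class II promoters the Y boxes shown above stood within 62 bases of the start.

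The T cell genes were lower as a list. In KI 13 of 17 were down and 1 up, against 24.8% and 17.8% of all genes. In NIC 7 of 17 were down and none up, against 9.8% and 8.8%. The medians of the T cell list were -0.999 and -1.18. The CD3 chains carry the signal of the T cell receptor. Cd3d was 1.02, -0.05, 0.47, -0.26 and 0.18 in KI, -0.14 and -0.25 in NIC, and 2.79 and 2.37 in normal gland. All tumours lay below both glands, by 2.31 ± 0.32 in KI (4.96-fold lower, adjusted p = 0.00146) and 2.77 ± 0.19 in NIC (adjusted p = 0.0111). In gland 2 its arrays gave 1.39 and 3.35, and the NIC call was lost on Cy5 alone (-2.27, adjusted p = 0.0811). Cd3g ranged from -2.79 to -1.61 in KI and was -2.63 and -2.78 in NIC, against 0.40 and -1.04. It fell by 1.91 ± 0.42 in KI (adjusted p = 0.00883), but the NIC difference of -2.38 ± 0.55 did not pass (adjusted p = 0.0637). Cd3e was at -0.33 ± 0.15 in KI and -0.13 ± 0.19 in NIC and passed in neither, although its second probe gave -0.95 and -1.19.

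The kinases of the T cell receptor were lower too. Lck, which starts the signal, was -1.69, -2.55, -1.08, -1.72 and -2.22 in KI, -2.59 and -2.89 in NIC, and 0.25 and -0.44 in normal gland. It fell by 1.76 ± 0.38 in KI (adjusted p = 0.00898) and by 2.65 ± 0.29 in NIC (adjusted p = 0.0202). On Cy5 alone both calls were lost, at -1.19 in KI (adjusted p = 0.11) and -1.89 in NIC (adjusted p = 0.13), and gland 2 gave -1.30 on Cy5 and 0.42 on Cy3. Zap70, which relays the signal, fell by 0.72 ± 0.23 in KI (adjusted p = 0.0386) and by 1.23 ± 0.21 in NIC (adjusted p = 0.0403). KI tumour 1, at -1.71, lay above normal gland 2, at -1.76, and the KI call was lost, with a value of 0.14, when KI levels were taken from the scanner signals.
The co-receptors went different ways. Cd8b1 was between 0.05 and 0.31 in KI, 0.09 and 0.04 in NIC, and 1.26 and 1.23 in normal gland, with no overlap. It fell by 1.09 ± 0.08 in KI (adjusted p = 1.8e-04) and by 1.18 ± 0.10 in NIC (adjusted p = 0.0131). The gland 2 value averages 0.56 on Cy5 and 1.90 on Cy3. By dye the NIC difference was -0.83 on Cy5 (adjusted p = 0.147) and -1.52 on Cy3 (adjusted p = 0.0741), called on neither. In KI it was -0.78 and -1.40, called on both. Cd8a fell by 0.61 ± 0.09 in KI (adjusted p = 0.0019), and its NIC value of -0.44 ± 0.14 did not pass (adjusted p = 0.111). Its other 2 probes gave larger differences, -2.33 and -1.84 in KI and -2.25 and -1.90 in NIC. Cd4 was -0.13, -0.43, -0.21, 0.11 and -0.25 in KI, -0.25 and -0.01 in NIC, and -0.72 and -0.63 in normal gland. It rose by 0.49 ± 0.14 in KI (adjusted p = 0.0256), and its NIC value of 0.54 ± 0.13 did not pass (adjusted p = 0.0700). Its second probe gave -0.04 and -0.07.

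Ccr7 and Il7r, receptors of naive and memory T cells, were lower in both tumour types. Ccr7, the receptor that brings naive T cells and dendritic cells into lymph nodes, was between -0.12 and 0.17 in KI and at -0.12 and -0.07 in NIC, against 2.35 and 1.47. It fell by 1.89 ± 0.21 in KI (adjusted p = 5.9e-04) and by 2.00 ± 0.34 in NIC (adjusted p = 0.0385). Gland 2 gave 0.25 on Cy5 and 2.69 on Cy3, and on Cy5 alone both calls were lost, at -1.29 in KI (adjusted p = 0.0821) and -1.50 in NIC (adjusted p = 0.279). Il7r, the receptor for the survival factor IL-7, was 1.62, 0.71, 2.13, 1.88 and 2.32 in KI, 1.28 and 1.24 in NIC, and 3.29 and 2.91 in normal gland. It fell by 1.37 ± 0.40 in KI (adjusted p = 0.0268) and by 1.84 ± 0.17 in NIC (adjusted p = 0.0154), but the KI value went to 4e-04 when arrays were scaled to 1 spread. Its second probe gave -0.34 and -0.36.
Cd2, Cd27, Cd28 and Ctla4 passed in KI and not in NIC, and none of the 4 passed between KI and NIC. The adhesion molecule Cd2 was -0.86 ± 0.19 in KI (adjusted p = 0.00931) and -1.20 ± 0.28 in NIC (adjusted p = 0.0676). The co-stimulatory receptors Cd27 and Cd28 were -1.15 ± 0.18 and -1.12 ± 0.24 in KI (adjusted p = 0.00215 and 0.00802) and -0.91 ± 0.28 and -1.85 ± 0.40 in NIC (adjusted p = 0.103 and 0.0576). The inhibitory receptor Ctla4 was -0.999 ± 0.21 in KI (adjusted p = 0.00755) and -0.92 ± 0.23 in NIC (adjusted p = 0.0753). Cd6 fell by 0.63 ± 0.09 in KI (adjusted p = 0.0019) and was at -0.48 ± 0.16 in NIC (adjusted p = 0.117), and its second probe gave -0.99 and -1.66. Cd5, a receptor that dampens T cell signalling, fell by 0.88 ± 0.13 in NIC (adjusted p = 0.0306) and was at -0.16 ± 0.13 in KI. Foxp3, the factor of regulatory T cells, was at -0.13 ± 0.10 in KI and -0.10 ± 0.13 in NIC and passed in neither.

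Of the 7 NK and cytotoxic genes 4 fell and none rose in KI, against 24.8% and 17.8% of all genes. In NIC 3 fell and 1 rose, against 9.8% and 8.8%. The medians of the NK list were -1.49 and -1.38. Klra1 is a Ly49 receptor of NK cells. Its probe is named Klra22 in the files, and because Ly49 genes are near-identical to each other the signal may come from other members. It was 1.35, -3.97, -1.71, -2.79 and -3.45 in KI tumours 1 to 5, -4.02 and -3.88 in the NIC pools, and 1.04 and 2.43 in normal glands 1 and 2. KI tumour 1 lay within the range of the glands, and the other 4 KI tumours lay below 0. It fell by 5.69 ± 0.52 in NIC (51.5-fold lower, adjusted p = 0.0156), while the KI difference of -3.85 ± 1.33 did not pass (adjusted p = 0.0502). Without KI tumour 1 it was -4.71 and passed (adjusted p = 0.00301). The related probes Klra7 and Klra8 were also highest among KI tumours in tumour 1, at 1.13 and 1.71, against ranges of -3.41 to -2.02 and -0.50 to -0.07 in the other 4.
Klrd1 (CD94), a partner chain of NK receptors, was 0.91, 1.20, 0.62, 0.12 and 0.94 in KI, 0.63 and 0.54 in NIC, and 3.34 and 3.20 in normal gland. The groups were well apart, with a fall of 2.51 ± 0.26 in KI (adjusted p = 4.7e-04) and of 2.69 ± 0.11 in NIC (adjusted p = 0.00794). Nkg7, a protein of cytotoxic granules, was 1.84, 0.33, 0.67, 0.05 and 0.28 in KI, 0.63 and 0.44 in NIC, and 1.97 and 2.27 in normal gland. It fell by 1.49 ± 0.44 in KI (adjusted p = 0.0303) and by 1.58 ± 0.16 in NIC (adjusted p = 0.0181). The NIC call was lost on Cy5 and on Cy3 alone (adjusted p = 0.0566 and 0.0803), and the KI call on Cy5 alone (adjusted p = 0.115).

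The 2 granzymes, whose promoters are printed above, differed from each other. Gzma was -0.42, -0.14, -0.30, -0.38 and -0.19 in KI, 0.999 and 0.10 in NIC, and 1.94 and 1.92 in normal gland. It fell by 2.21 ± 0.21 in KI (4.64-fold lower, adjusted p = 3.8e-04), and its NIC value of -1.38 ± 0.35 did not pass (adjusted p = 0.0742). The NIC pool 1 value averages 2.08 on Cy5 and -0.08 on Cy3, and on Cy3 alone the NIC difference was -1.91 and passed (adjusted p = 0.0336). Gzmb was 0.34, 1.82, 0.35, 0.17 and 1.55 in KI, 1.62 and 1.69 in NIC, and 0.96 and 0.998 in normal gland. It rose by 0.67 ± 0.10 in NIC (1.6-fold higher, adjusted p = 0.0300). The KI tumours lay on both sides of the glands, with tumours 2 and 5 near the NIC pools and tumours 1, 3 and 4 below both glands, and the KI difference was -0.14 ± 0.48 (adjusted p = 0.842). The NIC call was lost on the arrays of either dye alone and when any 1 of the 4 samples was left out. Prf1, perforin, fell by 0.36 ± 0.09 in KI (adjusted p = 0.0147) and was at -0.27 ± 0.12 in NIC (adjusted p = 0.185). Ncr1, the NK receptor NKp46, was at 0.07 ± 0.05 in KI and 0.10 ± 0.10 in NIC with its used probe, but at -1.33 and -1.25 with its second one.

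Between KI tumours and NIC pools the differences were small beside those from normal gland. Cd79b was higher in KI by 0.48 ± 0.10 (adjusted p = 0.0411), and all 5 KI values given above lay above both NIC values, but it was 0.11 on Cy5 and 0.86 on Cy3 and passed on neither alone. Cd5 was 0.05, -0.47, -0.29, -0.26 and -0.18 in KI and -1.02 and -0.88 in NIC, with no overlap, and was higher in KI by 0.72 ± 0.13 (adjusted p = 0.0271). Neither call held in all alternatives: the number of genes higher in KI fell to 0 without KI tumour 4, without KI tumour 5 and without either NIC pool. Ms4a1 was higher by 1.25 ± 0.42 but did not pass (adjusted p = 0.131). Its groups did not overlap on the averages of both dyes, but on Cy5 NIC pool 2, at -2.81, lay within the KI range. By dye the difference was 0.64 on Cy5 (adjusted p = 0.55) and 1.85 on Cy3 (adjusted p = 0.0464). Gzma was at -0.83 ± 0.21 (adjusted p = 0.0654), or from -1.28 to -0.38 with 1 sample left out. The list medians were 0.23 for B cell, -0.21 for class II, 0.11 for T cell and -0.03 for NK genes, against 0.00 for all genes (0.0035). The T cell median turned to -0.012 after quantile normalisation, which also raised the share of all calls that were lower in KI to 67.3%, against 52.8% before.

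The 5 KI tumours differed most in Klra1 (range 5.32 log2 units), Cxcl13 (3.35), Cd74 (2.53) and Ptprc (1.86). Tumour 1 had the highest value in 20 of the 38 genes, and tumours 4 and 2 had the lowest in 20 and 15. These counts were not made over all genes, so they cannot be told apart from an array-wide tendency. Some of the genes had KI ranges below 0.28, the median gap between the 2 arrays of 1 RNA (Ncr1 0.09, Cd79a 0.12, Cd6 0.14). Klra1, Cxcl13, Cd74 and Ptprc were highest in tumour 1, and for them the 2 arrays of each KI tumour differed by less than 1 log2 unit. Gzmb ran otherwise, with tumours 2 and 5 high. No correlation was computed over 5 tumours.

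**Figure D3:**
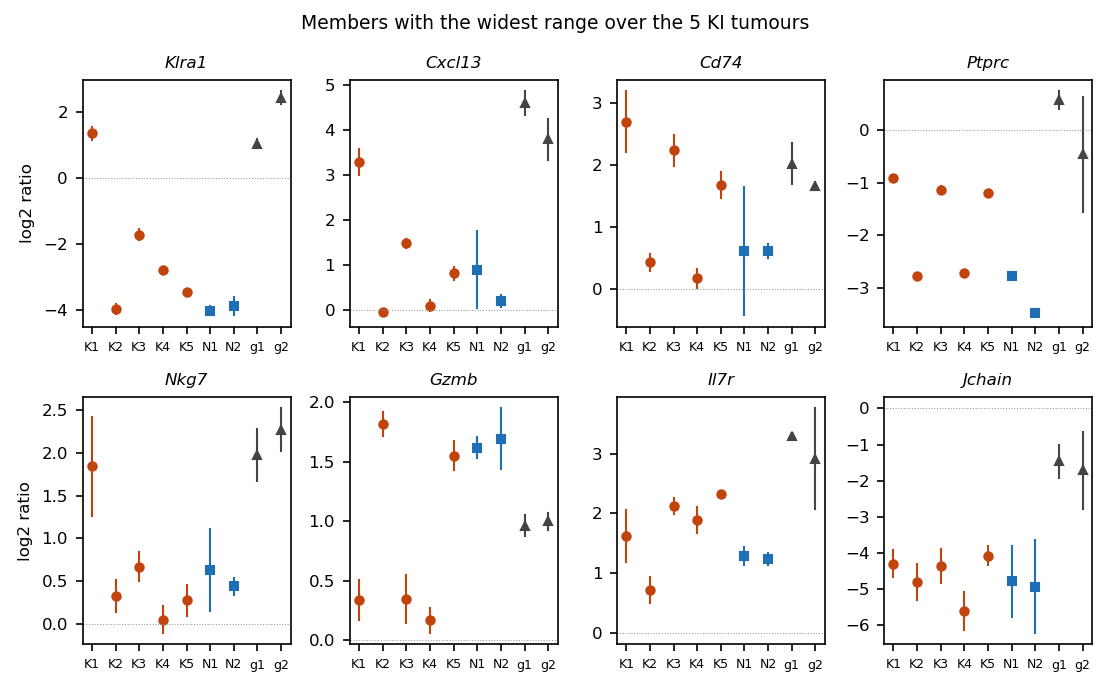
The 8 genes with the widest range over the KI tumours, with the log2 ratio on the vertical axis. K1 to K5 are KI tumours, N1 and N2 NIC pools and g1 and g2 normal glands; each marker is the mean of 2 arrays and the line joins their separate values. Klra1 in K1 (1.35) stands with the glands, and Gzmb is high in K2 and K5.

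Further genes of the same cell types, not among the 38, were also counted. The counts below stand beside 24.8% of all genes called lower and 17.8% higher in KI, and 9.8% and 8.8% in NIC. Of 20 other B cell genes 12 fell and none rose in KI, and 9 fell and none rose in NIC; of 22 other T cell genes 11 fell and 1 rose in KI, and 11 fell and none rose in NIC. Of 19 other NK genes 9 fell in KI and 7 in NIC, with none higher. The B cell genes Fcrla, Irf4 and Tnfrsf13b were at -2.56, -2.38 and -1.85 in KI and at -3.12, -2.94 and -2.65 in NIC, all called. The T cell kinase Txk and the phosphatase Ptpn22 fell in both, by 2.41 and 1.99 in KI and by 3.32 and 3.06 in NIC. Tcf7, a T cell factor also used in Wnt signalling, fell by 2.77 in NIC but was at 0.13 in KI (adjusted p = 0.849), and it was 2.91 higher in KI than in NIC (adjusted p = 0.0186). Klra7 and the chemokine Ccl5 fell in both, by 3.71 and 2.30 in KI and by 5.22 and 2.84 in NIC, while Klra8 fell by 2.06 in NIC and was at -1.57 in KI (adjusted p = 0.0528). Of 5 other class II genes H2-Oa alone was called lower, at -0.65 in KI and -0.80 in NIC, and in KI this count is near the all-gene share.

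Some markers of other cell types were lower too, while epithelial markers were mostly higher and macrophage markers mostly not called. The all-gene shares beside these counts are again 24.8% lower and 17.8% higher in KI, and 9.8% and 8.8% in NIC. Of 10 lymph node stroma and vessel genes 7 fell in KI and 6 in NIC. Their median level ran from -0.02 to 0.20 in KI and was 0.07 and 0.25 in NIC, against 1.59 and 1.64 in normal gland. Within it Fcna and Ltb were at -2.47 and -2.10 in KI and -3.33 and -2.81 in NIC, and Glycam1, which milk-producing epithelium also expresses, at -1.57 (not called) and -4.60. Madcam1, the vessel address molecule of mucosal lymphoid tissue, lay between -0.02 and 0.29 in all 9 samples. Adipocyte genes were lower (7 of 10 in each), with medians from 0.03 to 0.88 in KI and of 0.68 and 0.15 in NIC against 3.85 and 3.30, led by Plin4, Lep and Cidec at -5.29, -4.58 and -4.34 in KI and -5.61, -4.51 and -4.18 in NIC. Fibroblast genes (Dcn, Pdgfra, Dpt) were lower in 4 of 6 in KI and 3 of 6 in NIC, with medians from -1.53 to 0.51 and of -0.49 and -1.76 against 1.94 and 1.73. Endothelial genes (Tek, Vwf, Cdh5) were lower in 2 and 3 of 6, and the KI count is near the all-gene share.
Epithelial genes were higher in 8 of 10 in KI and 7 of 10 in NIC, with medians from 2.82 to 3.24 and of 2.98 and 3.21 against 0.78 and 0.84. Epcam, Esrp1 and Cldn7 were at 3.37, 3.11 and 2.38 in KI and 3.87, 3.71 and 2.65 in NIC. Of 13 macrophage genes 2 rose and none fell in KI, and 2 rose and 1 fell in NIC, with 7 and 9 of the 13 values below 0 and medians of -0.03 and -0.46. The complement gene C1qa rose by 1.82 in KI and 2.03 in NIC. C1qb rose by 1.89 in NIC and was at 1.08 in KI (adjusted p = 0.0624), and the receptor Csf1r fell by 1.09 in NIC and was at -0.54 in KI (adjusted p = 0.141). Of 10 dendritic cell genes 6 fell and 1 rose in KI and 2 fell in NIC, with Ccl22 and Clec9a lower in both (-1.77 and -0.65 in KI, -1.95 and -0.66 in NIC). Skeletal muscle genes were above 0 in median in KI tumour 2 (0.94) and normal gland 2 (0.71) and below it in the other 7 samples, with Acta1 at -1.29 in KI and -3.03 in NIC and Des at 0.25 (not called) and -1.44. Immature lymphocyte genes (4) were called in 0 cases in NIC and in 1, higher, in KI. The part of lymph node, fat and epithelial content in the lymphocyte values was not tested.

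**Figure D4:**
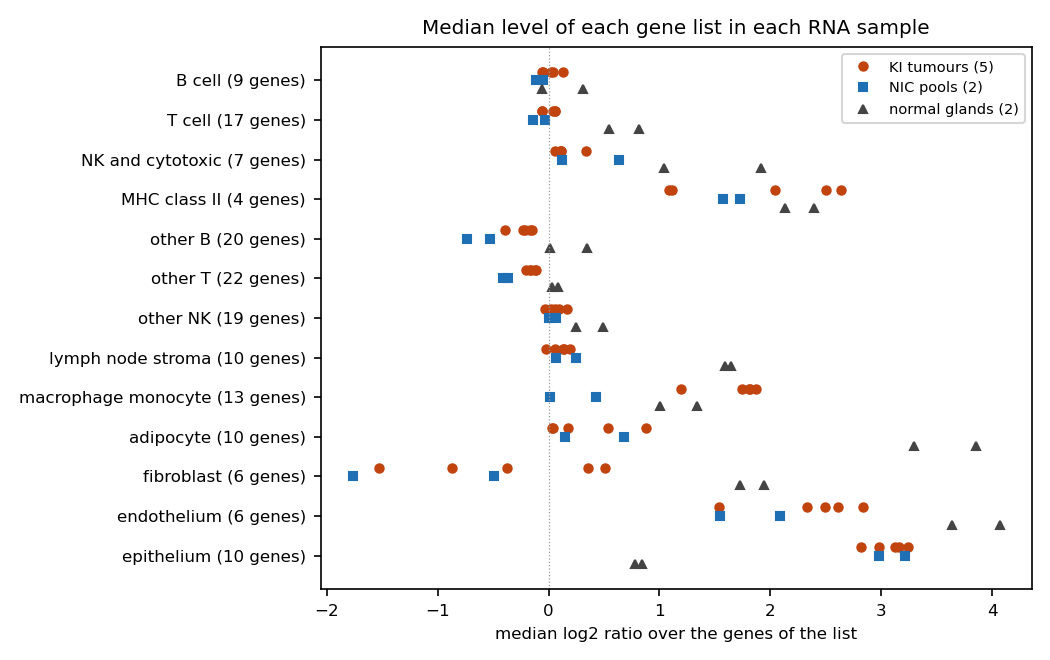
Median log2 ratio over the genes of each list (horizontal axis) in each RNA sample, 1 point per RNA, for KI tumours, NIC pools and normal glands. The lymph node stroma and adipocyte lists are lower in all 7 tumour samples than in both glands, and the epithelium list is higher in all 7.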

How the data were processed

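RNA of 9 samples was measured on 18 two-colour Agilent arrays (2 per RNA, dyes swapped). The values used are the deposited log2 ratios of sample over reference, in 1 table for KI and 1 for NIC and normal; the submitters' processing notes name RMA without settings. Scanner intensity and log10 ratio columns deposited for the 10 KI arrays were written, per the file headers, by version A.7.5.1 of Agilent's Feature Extraction. The deposited KI columns correlated at 0.982 to 0.988 with a normexp (offset 50) and loess normalisation of their own scanner intensities, so KI comparisons were tested. For NIC and normal arrays scale and direction were taken by analogy with the KI table. Those arrays lie under a different platform record, and their probe names and choice of probe were carried over from the KI arrays by spot number.

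Probes (41174, after 2256 control spots were left out) were named through RefSeq GRCm38.p6: 20716 by accession, 5039 by current symbol and 5279 by older symbol, and 10140 kept the name in the file. The brightest probe on the KI arrays stood for each gene. Both arrays of an RNA were averaged, since they hold 1 extract; their correlation over genes was 0.817 to 0.941. limma 3.58.1 in R 4.3.3 (lmFit, eBayes, two-sided) compared NIC with normal on their 4 RNAs, and KI with normal and with NIC in 1 fit of all 9; Benjamini-Hochberg ran over 28919 genes. The fit was tested on simulated data. Nothing in the labels says whether NIC pools share tumours. The number of arrays limits precision. All members are named; from each list of other genes the 3 with the largest called NIC minus normal differences are named. The members and lists were chosen with earlier results of these data known. Alternatives covered probes, dyes, scaling, filter, block, scanner values, extraction day and each RNA left out.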

Additional observations from a re-analysis of the deposited data

Results flagged for a closer look

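Of the 38 genes screened for a KI tumour far from the other 4, 1 had one. Ctla4 was -0.64 in KI tumour 3, against -0.09 to 0.01 in the other 4 KI tumours, and its gap to the nearest of them was 0.844 of the whole range. It rests on 1 array: tumour 3 gave -0.02 on Cy5, within the range of -0.03 to 0.13 of the other tumours on that dye, and -1.26 on Cy3, against -0.22 to -0.12. By chance a gap just large enough to be flagged arises in about 1 of 20 groups tested, and 38 genes were screened.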

How the results depend on the processing

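Genes that passed neither before nor under an alternative were not read for direction, and a list median was counted as turned only where it exceeded the spread between replicates. Of the genes called, 0 of 18 for NIC minus normal kept the call under every alternative (3 of 18 when no sample was left out), 11 of 24 for KI minus normal (13 when none was left out) and 0 of 2 for KI minus NIC (0 when none was left out). No paired analysis was possible because the replicate numbers name different animals, tumours or pools.

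NIC minus normal, all genes, called 2044 genes on Cy3 arrays alone, 3479 among genes above the median signal (12 of the 38 genes tested), 10637 with all arrays and the RNA as a random block, and 10382 with all 9 RNAs in the fit. Members called lower numbered 3 on Cy5 arrays alone, where 4785 of all genes were called in either direction, and 8 above the median signal. Members called higher numbered 0 on either dye alone and above the median signal, 3 when scaled to 1 spread and 2 with the random block. The B cell median was -0.90 on Cy5, -2.15 on Cy3, -0.95 when scaled and -3.84 above the median signal. The class II median was -0.73 on Cy3 and 0.41 when scaled, where H2-Aa turned to 1.37 and H2-Ab1 to 0.89. The T cell median was -0.90 on Cy5, -1.35 on Cy3, -0.72 when scaled and -0.68 above the median signal. The NK median was -0.85 on Cy5, -0.68 when scaled and -5.69 above the median signal. With 1 sample left out, the lone sample of a group is assumed to vary like the other group. The all-gene count then ran from 0 to 4265, members lower from 0 to 20 and members higher from 0 to 0. The medians ran from -1.55 to -1.50 (B cell), -0.58 to -0.21 (class II), -1.20 to -0.83 (T cell) and -1.68 to -0.93 (NK). Without NIC pool 1 or 2 no gene passed with limma, while 6404 and 6971 of all genes had an unadjusted p under 0.05.

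KI minus normal, all genes, called 7805 when scaled and 6444 above the median signal, where 7 members were lower. Members called higher numbered 0 with the mean of all probes, on Cy5, after quantile normalisation, above the median signal and without the smaller extraction day. They numbered 2 with the random block, with KI levels from scanner loess and with the Agilent log ratio. The B cell median was -0.71 on Cy5, -2.29 on Cy3, -0.93 when scaled and -3.04 above the median signal. The class II median was 0.65 when scaled, not counted as turned because the median before did not exceed the spread between replicates. There H2-Aa turned to 1.23 and Il7r to 4e-04. Zap70 turned to 0.14 with scanner loess, and Ncr1 to -0.63 with the mean of its probes. The T cell median was -0.78 on Cy5, -1.15 on Cy3, -0.60 when scaled, -0.48 above the median signal, -0.83 with scanner loess and -0.85 with the Agilent log ratio. The NK median was -0.66 when scaled and -3.85 above the median signal. With 1 sample left out the all-gene count ran from 9255 to 12070, members lower from 15 to 24 and members higher from 0 to 2. The medians then ran from -1.53 to -1.48 (B cell), -0.58 to -0.26 (class II), -1.22 to -0.60 (T cell) and -1.79 to -1.34 (NK).

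KI minus NIC, all genes, called 1088 after quantile normalisation, 868 above the median signal, 4018 with the random block and 3705 with scanner loess, which called 2 members lower and 6 higher. Members higher numbered 0 on Cy5 and after quantile normalisation, and 1 when scaled, above the median signal and without the smaller extraction day. The B cell median was 0.48 on Cy3, 0.032 after quantile normalisation and 0.48 above the median signal. The T cell median was 0.25 with the mean of all probes, 0.21 on Cy5, -0.012 after quantile normalisation and 0.28 above the median signal; the NK median was 1.84 above the median signal. With 1 sample left out the all-gene count ran from 505 to 2096, members lower from 0 to 1 and members higher from 0 to 3. The medians ran from 0.15 to 0.48 (B cell), -0.31 to 0.05 (class II), 0.07 to 0.14 (T cell) and -0.08 to -0.00 (NK). The cause of these shifts was not tested, except that fewer genes or samples enter the fits with a filter or a sample left out.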
